A study of Mus musculus with 8 samples.

Results

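The 8 megakaryocyte and platelet genes *Pf4*, *Ppbp*, *Itga2b*, *Plek*, *Treml2*, *Rab27b*, *Gp9* and *F10* were taken from the single-cell counts by gene symbol, out of 55422 features, of which 37150 had at least 1 UMI (a unique molecular identifier, which counts 1 captured RNA molecule) in the cells kept. Their levels were compared between Tet-TKO and WT host cells of chimaeric mouse embryos, at E7.5 and E8.5 and in the blood cell groups of each stage. Tet-TKO cells descend from ES cells that lack all Tet enzymes, on a C57BL/6J-129Sv background, and carry an H2B-tdTomato label driven by the CAG promoter. They had been injected into C57BL/6J blastocysts, so the WT host cells are unlabelled cells of the same pooled embryos, and genotype, strain background and origin from injected ES cells cannot be told apart. Sorted cells yielded 6 libraries at E8.5, namely 4 from Tet-TKO and 2 from WT host cells, and 1 per genotype at E7.5. The sources used here do not say whether the libraries of a genotype came from separate pools of embryos, so the p-values measure the spread between libraries, which may be technical.

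Megakaryocytes are the large cells that shed platelets. In the mouse embryo their first progenitors arise in the yolk sac beside primitive erythroid cells and early myeloid cells, from blood progenitors that share a haematoendothelial origin with the vessel wall. Platelets adhere through glycoprotein receptors, signal through kinases and integrins, and release chemokines and clotting proteins from granules, and most of the genes described here belong to these steps. TET enzymes oxidise methylated cytosine and thereby help to remove DNA methylation.

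The libraries held 65601218 to 136982886 UMIs and 1008 to 9545 kept cells each, and Tet-TKO libraries 3 and 4 had the fewest cells and the highest median depth per cell. Barcodes shared between libraries numbered 0 to 29 per pair, at most 0.404% of the smaller library. Tet-TKO libraries 1 and 2, and likewise 3 and 4, differed from each other far less than any other pair, with chi-square values per degree of freedom of 14.2 and 16.1 against 128 or more, which was still above sampling noise. At E8.5 the tdTomato transcript was found in 60.8 to 87.3% of Tet-TKO cells and in at most 0.841% of WT host cells. Transcripts of the targeted genes were still counted in Tet-TKO libraries: at E8.5 *Tet1* was at 9.92 to 20.9 CPM against 20.4 and 22.5 CPM in the WT host, *Tet2* at 5.55 to 10.53 CPM against 4.67 and 4.63 CPM, and *Tet3* at 22.5 to 37.5 CPM against 23.1 and 23.2 CPM. A 3′ tag outside the deleted part does not check the deletion, so the genotype rests on the labels and on tdTomato.

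The genes have unlike roles. *Pf4* (platelet factor 4) and *Ppbp* (pro-platelet basic protein) encode chemokines of the alpha granules and lie 2371 bases apart on chromosome 5. *Itga2b* encodes CD41, the alpha chain of the fibrinogen receptor, which is also an early marker of embryonic blood progenitors. *Gp9* encodes a subunit of the von Willebrand factor receptor, and *Plek* encodes pleckstrin, a substrate of protein kinase C in platelets. *Rab27b* encodes a small GTPase of granule secretion. *Treml2* encodes a receptor of the TREM family and *F10* the plasma protease coagulation factor X, and neither is particular to platelets.

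The promoters of *Pf4* and *Plek*, the members whose levels differed between genotypes within blood progenitor-like cells, and of *Itga2b* and *Gp9*, 2 receptors whose levels did not pass the test there, are shown so that their base composition and motifs can be compared. Each is the RefSeq window from 250 bases before to 50 after the gene's start in GRCm38.p6, read 5′ to 3′ on the gene's own strand, at chr5:90772185-90772484 (+) for *Pf4*, chr11:17008669-17008968 (-) for *Plek*, chr11:102469834-102470133 (-) for *Itga2b* and chr6:87777820-87778119 (+) for *Gp9*. Capitals mark AGATAA, a form of the GATA motif, and AGGAAG, a form of the ETS motif, on either strand.
Pf4: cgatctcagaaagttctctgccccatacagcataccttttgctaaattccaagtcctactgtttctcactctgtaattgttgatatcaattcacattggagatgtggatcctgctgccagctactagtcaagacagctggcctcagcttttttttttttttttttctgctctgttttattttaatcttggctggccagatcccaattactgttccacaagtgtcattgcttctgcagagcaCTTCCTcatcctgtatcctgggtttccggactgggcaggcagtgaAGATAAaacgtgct
Plek: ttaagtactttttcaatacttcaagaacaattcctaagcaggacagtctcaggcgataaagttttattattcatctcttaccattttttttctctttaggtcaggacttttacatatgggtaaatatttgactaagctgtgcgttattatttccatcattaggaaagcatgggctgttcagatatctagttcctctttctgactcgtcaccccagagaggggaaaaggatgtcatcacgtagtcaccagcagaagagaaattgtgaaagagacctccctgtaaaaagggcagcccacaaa
Itga2b: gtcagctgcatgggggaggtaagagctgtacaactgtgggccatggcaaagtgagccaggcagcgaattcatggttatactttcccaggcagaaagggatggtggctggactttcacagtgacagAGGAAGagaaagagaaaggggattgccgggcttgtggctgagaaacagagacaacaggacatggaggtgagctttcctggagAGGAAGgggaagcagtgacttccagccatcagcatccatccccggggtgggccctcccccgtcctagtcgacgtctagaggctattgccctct
Gp9: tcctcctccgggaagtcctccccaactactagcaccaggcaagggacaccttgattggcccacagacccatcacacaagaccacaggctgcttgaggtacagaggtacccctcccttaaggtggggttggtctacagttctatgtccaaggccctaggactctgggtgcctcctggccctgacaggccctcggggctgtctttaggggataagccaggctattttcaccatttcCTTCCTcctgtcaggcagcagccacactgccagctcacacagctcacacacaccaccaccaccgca
The *Pf4* window holds AGGAAG on the reverse strand from 9 bases before the start and AGATAA on the forward strand from 36 bases after it. *Itga2b* holds AGGAAG on the forward strand at 125 and 43 bases before the start, and *Gp9* holds it on the reverse strand at 16 bases before. Neither motif, nor TGATAA, was found in the windows of *Plek*, *Ppbp* or *F10*. Of all 32851 RefSeq promoters, 11.2% hold AGATAA, 9.05% hold TGATAA and 35.4% hold AGGAAG, so such matches are common. CG pairs, the target of DNA methylation, number 3 in the windows of *Pf4*, *Ppbp* and *Gp9*, 4 in that of *Plek*, 5 in that of *F10* and 6 in that of *Itga2b*. These lie between the lower quartile of 3 and the median of 7 over all promoters, whose upper quartile is 20. The *Plek* window lies inside the longer gene model of the GENCODE M21 annotation, in which *Plek* spans 16971206 to 17052381 on chromosome 11. Most of the *Itga2b* window also lies inside its gene model there, which begins on the minus strand at 102470122. The 2 AGGAAG copies counted as before the RefSeq start of *Itga2b* thus lie within that model. In the same annotation *Pf4* spans 90772435 to 90773383 on chromosome 5, *Itga2b* 102453297 to 102470122 on chromosome 11, *Gp9* 87778072 to 87779768 on chromosome 6, *F10* 13037308 to 13056676 on chromosome 8 and *Treml2* 48299498 to 48312533 on chromosome 17.

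The 37186 kept E8.5 cells fell into 45 clusters, 32 of which took the name of a cell type from marker genes, written as "like". The members, the other platelet genes of a fixed list, the globin genes and sex-linked or targeted genes were left out of the clustering, so the clusters were not built from the genes compared here. Levels are given as CPM, the UMIs of a gene per 1000000 UMIs of all cells in a group, summed per library. Among the 19 named classes of WT host cells, the blood progenitor-like class had the highest level of every member except *Ppbp*. *Pf4* followed a steep order, from a mean of 51.1 CPM in blood progenitor-like cells to 13.7 CPM in endothelium-like, 9.36 CPM in haematoendothelial progenitor-like and 0.912 CPM in erythroid-like cells. The first of these means rests on unlike libraries, 18.4 and 83.9 CPM, whereas the ranges of the next classes, 12.6 to 14.7 and 8.67 to 10.1 CPM, were narrow and did not overlap.

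*Plek* had a like order, with 62.0 CPM in blood progenitor-like and 4.83 CPM in endothelium-like cells. *Gp9* was low throughout, at 8.70 CPM in blood progenitor-like and 1.90 CPM in erythroid-like cells. *Itga2b* was spread more widely over the blood classes, with 82.8 CPM in blood progenitor-like, 41.5 CPM in endothelium-like, 30.4 CPM in erythroid-like and 6.73 CPM in haematoendothelial progenitor-like cells. *Treml2* was held by progenitors (20.8 CPM) and by erythroid-like cells (15.5 CPM). *Rab27b* fell from 149 CPM in blood progenitor-like cells to 8.35 CPM in erythroid-like, 7.19 CPM in endothelium-like and 6.65 CPM in gut-like cells, and these last 3 classes overlapped in their library ranges. *F10* reached 97.4 CPM in blood progenitor-like cells, and its levels in erythroid-like cells (60.8 CPM) and in visceral and yolk sac endoderm-like cells (60.6 CPM) did not differ beyond their spread. *Ppbp* had between 0 and 4 UMIs in any E8.5 library and was not tested, since it was left out by the filter on low counts in every comparison. Brain and spinal cord-like cells, which should lack these genes, held at most 0.745 CPM of any member in a library.

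**Figure D1:**
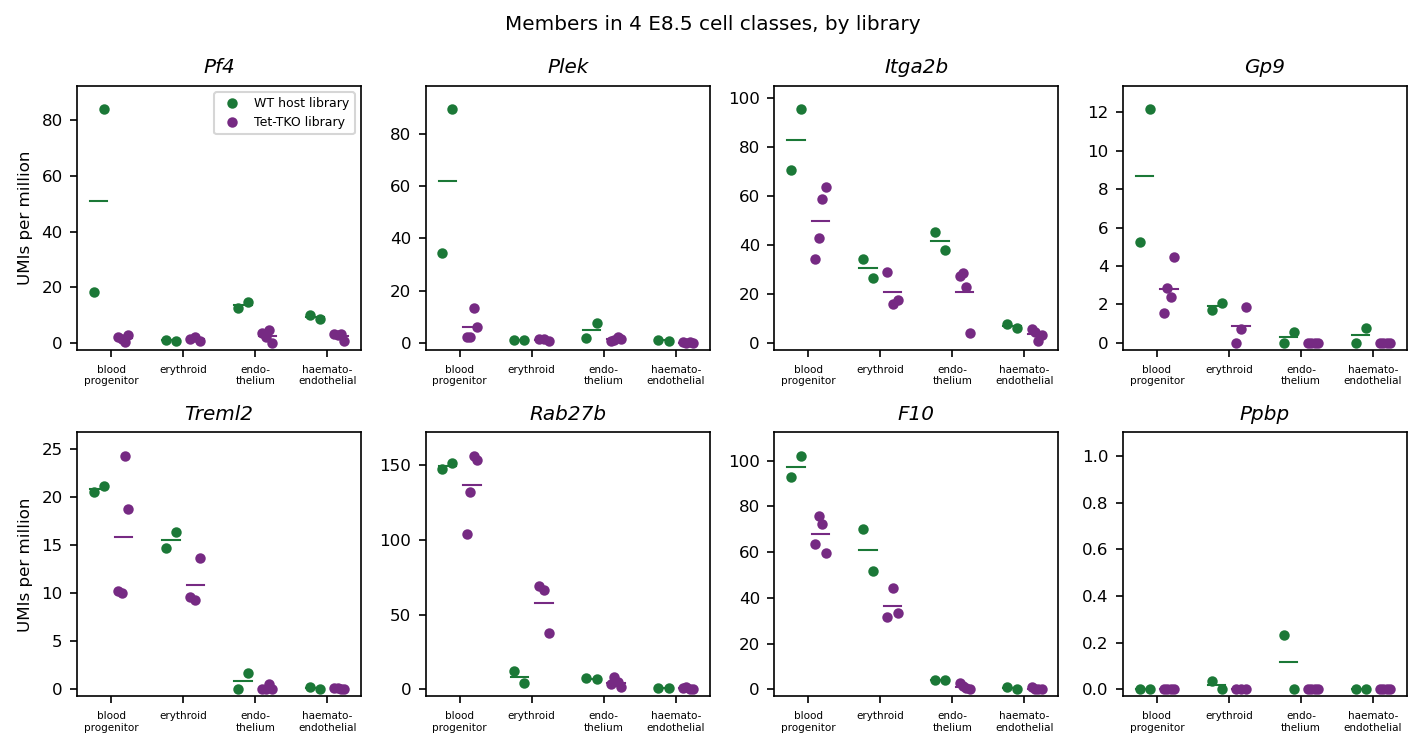
Levels of the 8 members (CPM, linear axis, own scale per gene) in 4 E8.5 cell classes; each point is a library of at least 10 cells and the line is the mean of a genotype. *Pf4* and *Plek* stand high in the 2 WT host libraries of the blood progenitor-like class (18.4 and 83.9 CPM for *Pf4*), *Rab27b* is at a like level in both genotypes there, and *Ppbp* is near 0 in all classes.

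The comparison between genotypes asks whether the members differ between Tet-TKO and WT host cells of the same class. The blood progenitor-like class held 291, 366, 50 and 23 cells in Tet-TKO libraries 1 to 4, and 123 and 216 cells in WT host libraries 1 and 2. *Pf4* and *Plek* were lower in Tet-TKO cells of this class, whereas *Rab27b*, *Treml2*, *F10*, *Itga2b* and *Gp9* did not pass the test. With replicate number as a block, an alternative given at the end, *Itga2b* and *Gp9* were called lower too, as were 261 of 9914 genes. *Pf4* was at 1.97, 1.43, 0.398 and 2.96 CPM in the 4 Tet-TKO libraries and at 18.4 and 83.9 CPM in the 2 WT host libraries. The genotypes did not overlap, and the share of all genes that separate so was not counted. When all blood cells were clustered again, sub-clusters 2 and 10 also took the name blood progenitor-like. Sub-cluster 2 held mostly Tet-TKO cells and sub-cluster 10 almost only WT host cells. How many cells of this class lay in each is not given here. The log2 fold change of *Pf4* (Tet-TKO over WT host) was -4.88 with a standard error of 0.577 (edgeR's quasi-likelihood test, Benjamini-Hochberg adjusted p = 0.00186).

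*Plek* was at 2.25, 2.15, 13.5 and 5.93 CPM in the Tet-TKO libraries and at 34.5 and 89.4 CPM in those of the WT host. Its log2 fold change was -3.63 with a standard error of 0.566 (edgeR adjusted p = 0.0076). These 2 of the 7 members tested were called lower in Tet-TKO cells, that is, at an adjusted p under 0.01 and a log2 fold change of at least 1, as were 0.973% of the 9554 genes tested in the class. Both calls leaned on WT host library 2: without it the log2 fold change was -3.39 for *Pf4* (edgeR adjusted p = 0.0713) and -2.73 for *Plek* (adjusted p = 0.301), and without Tet-TKO library 2 or 4 the adjusted p of *Plek* was 0.0114 or 0.019, with DESeq2 it was 0.0121 and with cells of at least 3000 UMIs 0.0114. Both calls were also lost with the like Tet-TKO libraries summed (adjusted p = 0.0114 for *Pf4* and 0.028 for *Plek*) and at a coarser clustering, resolution 1 (0.0149 and 0.0529), and without correction between libraries the *Plek* difference was -0.25 (adjusted p = 1.0) and *Pf4* was not tested.

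The other members had smaller log2 fold changes. *Rab27b*, the granule GTPase, was at 104, 132, 156 and 153 CPM in Tet-TKO and at 147 and 151 CPM in WT host libraries, with a log2 fold change of -0.10 (SE 0.159, edgeR adjusted p = 0.831). At resolution 1 its direction turned, and *Rab27b* was called higher in Tet-TKO cells (1.03, edgeR adjusted p = 0.00338). *Itga2b* was at 34.0, 42.6, 58.5 and 63.7 CPM against 70.4 and 95.2 CPM, and *F10* at 63.7, 75.7, 72.4 and 59.8 CPM against 92.7 and 102 CPM. For both genes every Tet-TKO library lay below both WT host libraries, but the log2 fold changes of -0.74 (SE 0.226) and -0.47 (SE 0.145) did not pass the test (edgeR adjusted p = 0.151 and 0.157). The share of all genes that lie this way was not counted. *Gp9* was at 1.55, 2.86, 2.39 and 4.45 CPM against 5.25 and 12.2 CPM, with a log2 fold change of -1.74 (SE 0.458, edgeR adjusted p = 0.0931). *Treml2* was at 10.3 and 10.0 CPM in Tet-TKO libraries 1 and 2 and at 24.3 and 18.8 CPM in libraries 3 and 4, around the 20.6 and 21.1 CPM of the WT host (log2 fold change -0.45, SE 0.333, edgeR adjusted p = 0.612).

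**Figure D2:**
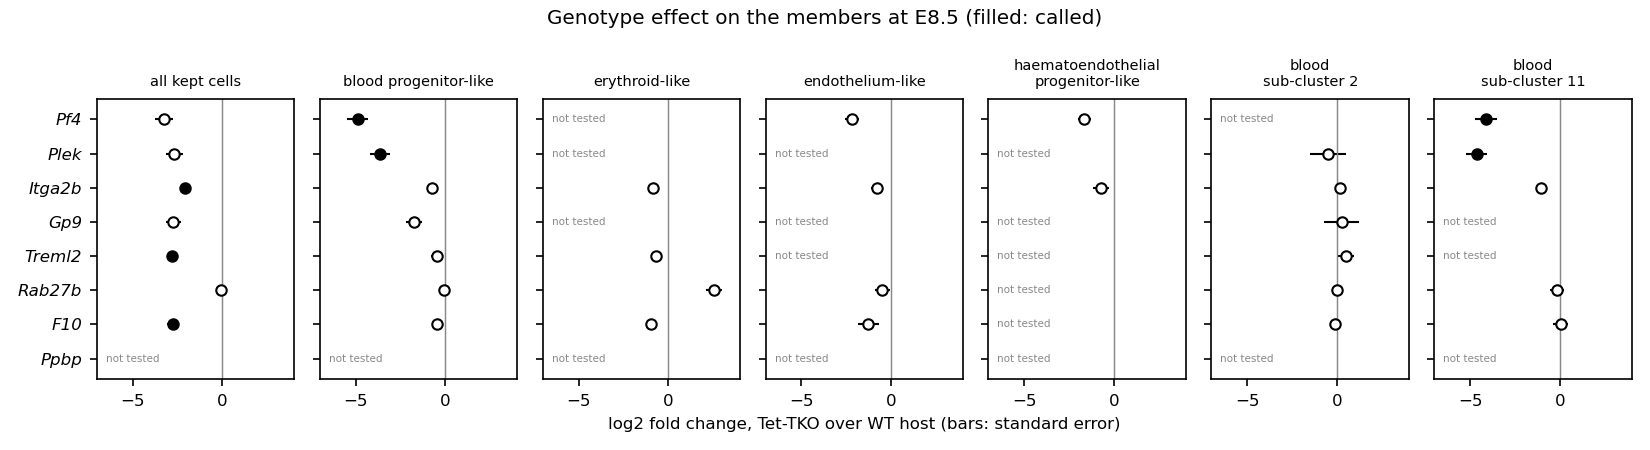
Log2 fold change of each member, Tet-TKO over WT host, with its standard error, over all kept E8.5 cells, in 4 cell classes and in 2 blood sub-clusters; filled points passed an edgeR adjusted p of 0.01 with a log2 fold change of at least 1. *Pf4* and *Plek* are filled in the blood progenitor-like class and in sub-cluster 11, *Itga2b*, *Treml2* and *F10* over all kept cells, and none in sub-cluster 2.

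The shares of cells with a UMI were also compared. *Pf4* was found in 2.60% of 730 Tet-TKO blood progenitor-like cells (exact 95% binomial interval 1.57 to 4.04%) and in 26.0% of 339 WT host cells (21.4 to 31.0%). *Plek* was found in 4.52% (3.13 to 6.29%) and 41.0% (35.7 to 46.5%) of them. The median depth was 19790 UMIs in Tet-TKO and 17070 UMIs in WT host cells, and after thinning each cell to 5000 UMIs, which left 701 and 322 cells, the shares were 0.856% and 15.5% for *Pf4* and 1.85% and 23.6% for *Plek*. *Rab27b* was found in 69.2% and 72.9% of cells, and in 40.1% and 43.2% after thinning. In brain and spinal cord-like cells, with median depths of 15030 and 13390 UMIs, no member had a share above 0.843%. These intervals cover counting error only.

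The 9 blood clusters, with 7173 cells or 19.3% of the kept cells, were clustered again, again without the members, into 16 sub-clusters. Sub-clusters 2 and 10 took the name blood progenitor-like, the first with mostly Tet-TKO cells and the second with almost only WT host cells. Both also held cells from outside the class of that name. Sub-cluster 10 held 120 and 132 cells of the WT host libraries, or 1.45% and 1.46% of their kept cells, but 1 cell of Tet-TKO library 1 and 0 cells of the other 3. Its log2 difference in cell number was -7.69 with a standard error of 0.749 (edgeR's quasi-likelihood test on cell numbers, adjusted p = 0.000312), against a background in which 36.5% of the 52 groups tested passed an adjusted p of 0.05. Of the 16 blood sub-clusters 10 passed, 9 of them with fewer Tet-TKO cells. Sub-cluster 2 was the exception, with 3.52, 3.66, 2.52 and 2.38% of the kept cells of the Tet-TKO libraries against 0.642 and 0.310% of the WT host libraries (log2 difference 2.67, SE 0.532, edgeR adjusted p = 0.00738). Without WT host library 2 the adjusted p for sub-cluster 2 was 0.0622, and a counterpart of sub-cluster 10 was found in 2 of 4 other clusterings.

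**Figure D3:**
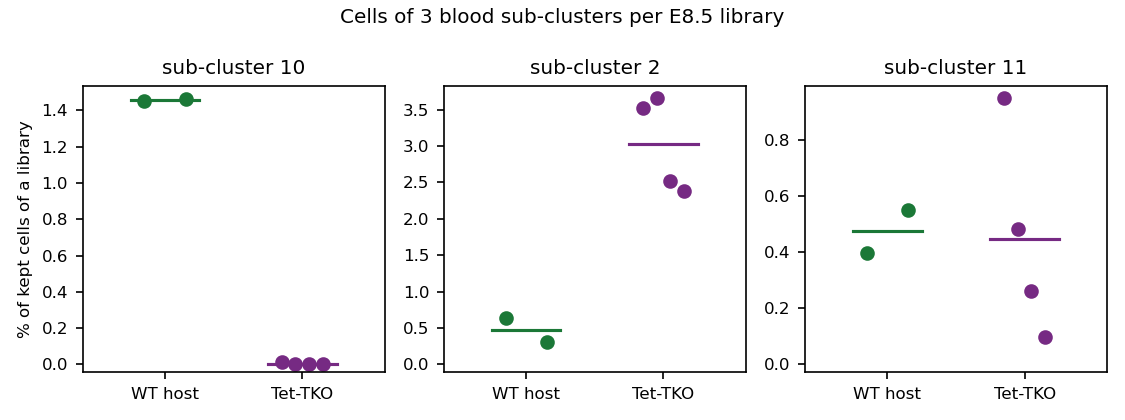
Cells of blood sub-clusters 10, 2 and 11 as a percentage of the kept cells of each E8.5 library (linear axes that start at 0); points are libraries and lines are means. Sub-cluster 10 makes up 1.45 and 1.46% of the WT host libraries and at most 0.0142% of a Tet-TKO library, whereas sub-cluster 2 is larger in all 4 Tet-TKO libraries (2.38 to 3.66%) and sub-cluster 11 overlaps.

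WT host cells of sub-cluster 10 carried the members together with other megakaryocyte genes. *Pf4* was at 14.8 and 118 CPM in WT host libraries 1 and 2, *Plek* at 35.5 and 125 CPM, *Itga2b* at 74.9 and 117 CPM and *Gp9* at 5.08 and 18.1 CPM. Library 2 was thus higher for these 4 genes, while *F10* stood at 136 and 138 CPM. Of 15 megakaryocyte markers, 12 were raised, that is, at least 1 above all kept cells of both genotypes on the log2(CPM + 1) scale, among them *Itgb3* (the integrin partner of CD41, 27.0 CPM), *Treml1* (17.0 CPM) and *Gp5* (14.6 CPM), and *Selp*, which encodes P-selectin of mature platelets, was at 0. Of 12 myeloid markers 6 were raised as well, including *Fcer1g* (37.6 CPM) and *Spi1* (21.9 CPM), whereas *Csf1r*, *Ptprc*, *Cd74* and *C1qb* were at 0. Markers of blood progenitors were raised as well (12 of 13), and the sub-cluster took the name blood progenitor-like. Its 10 leading genes by fold however included platelet genes (*Rab27b*, *Fermt3*, *Plek* and *Pf4* among them) and held no marker of the progenitor list, so it is called here by its number. Those of its WT host cells that lie in the class are set there beside Tet-TKO cells which, but for at most 1, lie outside sub-cluster 10.

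In sub-cluster 2, which held cells of both genotypes, no member was called. *Pf4* was at 2.16, 1.32, 0.339 and 0.952 CPM in the Tet-TKO libraries and had 0 UMIs in both WT host libraries, which hold 53 and 28 cells. *Itga2b* was at 35.3, 41.0, 53.5 and 61.0 CPM against 44.4 and 39.4 CPM, and *Rab27b* at 114, 130, 125 and 147 CPM against 127 and 137 CPM. The genotypes overlapped for both genes. The 6 members tested had log2 fold changes from -0.53 to 0.50, with none called, nor was any of the 8919 genes tested there (0%) called by edgeR, although 367 had an unadjusted p under 0.05 and DESeq2 called 5. Megakaryocyte markers summed to 25.2 CPM in WT host and 53.4 CPM in Tet-TKO cells of this sub-cluster, against 149 CPM in WT host cells of sub-cluster 10.

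**Figure D4:**
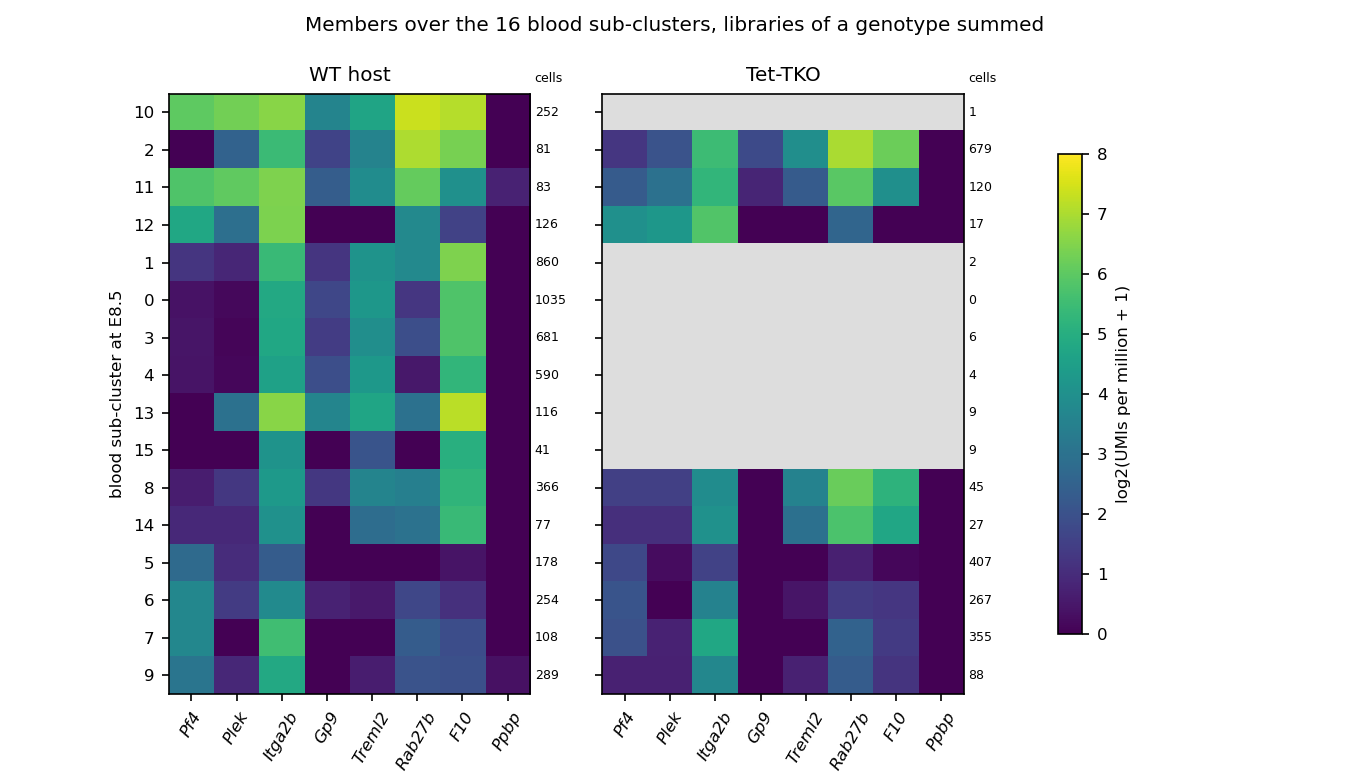
Members (columns) over the 16 E8.5 blood sub-clusters (rows, with the number of cells at the right), as log2(CPM + 1) of the summed libraries of WT host (left) and Tet-TKO cells (right); grey marks sub-clusters with fewer than 10 cells. The WT host rows 10 and 11 are bright for *Pf4*, *Plek* and *Itga2b*, row 10 has 1 Tet-TKO cell, and row 2 has no member that passed the test between genotypes.

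Sub-cluster 11 took the name myeloid-like because myeloid markers had the highest mean log2 fold over other cells (2.25, both genotypes together). It held 67, 46, 6 and 1 Tet-TKO cells and 33 and 50 WT host cells, and was tested between the 4 libraries of at least 10 cells. Of its cells 10.8% were scored as doublets, more of them in the WT host. Without these, 64, 43, 6 and 1 Tet-TKO and 25 and 42 WT host cells were left, and 2 of 6 members tested were called lower. *Pf4* was at 1.92 and 4.75 CPM in Tet-TKO libraries 1 and 2 against 25.5 and 76.4 CPM in the WT host (log2 fold change -4.12, SE 0.623, edgeR adjusted p = 0.00288). *Plek* was at 1.28 and 4.75 CPM against 38.2 and 86.2 CPM (log2 fold change -4.64, SE 0.573, edgeR adjusted p = 0.000835). The Tet-TKO side thus rests on libraries 1 and 2, which were much alike over all genes. Whether these came from separate pools of embryos is not known, so their spread may be technical. The alternative with like libraries summed could not be run here. Tet-TKO libraries 3 and 4, with 6 and 1 cells, were not tested. Library 3 held 48.2 CPM of *Plek* (13 UMIs) and 0 UMIs of *Pf4*, and library 4 held 30.9 CPM of *Pf4* (4 UMIs) and 0 UMIs of *Plek*, so that each had 1 of these genes inside the WT host range. These 2 of 5 members tested were called lower, as were 0.981% of the 6425 genes tested. *F10*, *Rab27b* and *Itga2b* had log2 fold changes of 0.03, -0.17 and -1.04 and did not pass. The myeloid markers of these cells moved in the same direction, with sums of 31.4 and 82.3 CPM in Tet-TKO and 667 and 1167 CPM in WT host cells, and 6 of 12 markers raised in Tet-TKO against 11 of 12 in WT host cells. Erythroid markers, at 156 and 238 CPM against 658 and 1436 CPM, and megakaryocyte markers, at 16.7 and 44.3 CPM against 58.9 and 115 CPM, did not overlap either. Of 13 endothelium markers 11 were raised in both genotypes, with sums of 1247 CPM in Tet-TKO and 1278 CPM in WT host cells, so the Tet-TKO cells carry the name less well than the WT host cells. The part of these markers in the result was not tested. Neither call held without Tet-TKO library 1 (edgeR adjusted p = 0.462 for *Pf4* and 0.301 for *Plek*) or 2 (0.0845 and 0.0484), that of *Pf4* was lost without WT host library 2 (0.275), and sub-cluster 11 had no counterpart when the clustering was changed in 4 ways.

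The sums of the myeloid markers did not overlap between genotypes in the blood progenitor-like class as a whole either, with values of 11.6 to 36.6 CPM in Tet-TKO and 223 and 339 CPM in WT host libraries. Megakaryocyte markers overlapped between genotypes there, at 24.8, 44.6, 125 and 107 CPM in the Tet-TKO and 69.9 and 164 CPM in the WT host libraries, with 0 to 4 of 15 markers at 0 per library. Endothelium markers summed to 170 to 268 CPM in Tet-TKO and to 414 and 351 CPM in WT host cells, without overlap. Blood progenitor markers, at 1117 to 1217 CPM against 1247 and 1397 CPM, did not overlap either. The same held for the low sums of brain and spinal cord markers, at 0.988 to 4.22 CPM against 4.81 and 6.94 CPM. Erythroid markers overlapped. The part of any of these lists in the differences of *Pf4* and *Plek* was not tested.

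In the other blood classes no member was called. In endothelium-like cells *Pf4* was at 3.60, 1.997, 4.69 and 0 CPM in Tet-TKO and at 12.6 and 14.7 CPM in WT host libraries, so that the genotypes did not overlap, with a log2 fold change of -2.18 (SE 0.397, edgeR adjusted p = 0.0141). How common such separation is among all genes was not counted. None of the 4 members tested was called, with 0.935% of 10799 genes called in either direction. Erythroid markers in these cells summed to 22.9 to 94.7 CPM in Tet-TKO and to 3339 and 8914 CPM in WT host libraries. Myeloid markers summed to 4.05 to 15.8 CPM against 43.5 and 80.4 CPM, and megakaryocyte markers to 40.5 to 63.8 CPM against 99.4 and 93.95 CPM. Endothelium markers summed to 2588 to 3317 CPM against 3475 and 3526 CPM. None of these lists overlapped between genotypes, and their part in the result was not tested. The *Pf4* difference lay between -2.41 and -1.97 in 21 other settings, 12 of which left it uncalled, among them scored doublets removed (adjusted p = 0.0201), and the others called it, among them DESeq2 (0.00544), like libraries summed (0.0086) and resolution 1 (0.00133). Some sub-clusters named endothelium-like differed in cell number between the 2 genotypes. Sub-cluster 7 held 135, 182, 26 and 12 Tet-TKO cells against 61 and 47 WT host cells, which did not pass (log2 difference in cell number 1.31, edgeR adjusted p = 0.0582). Sub-cluster 9 held 22, 56, 7 and 3 against 139 and 150 (log2 difference in cell number -2.09, edgeR adjusted p = 0.00777). Sub-cluster 12, with *Lyve1* as its leading gene, held 25.6 and 27.3 CPM of *Pf4* and 85.8 and 83.4 CPM of *Itga2b* in the WT host. It held 70 and 56 WT host cells against 1, 8, 6 and 2 Tet-TKO cells (-2.74, adjusted p = 0.0365), too few for a test of its genes.

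In haematoendothelial progenitor-like cells *Pf4* was at 3.33, 2.96, 3.37 and 0.818 CPM against 10.1 and 8.67 CPM (log2 fold change -1.67, SE 0.359, edgeR adjusted p = 0.048). Neither of the 2 members tested was called, and 0.773% of 10348 genes were. With replicate number as a block 1 of the 2 was called lower, as were 193 of 10665 genes. Without the count filter 1 of 7 was, as were 166 of 22103 genes. Erythroid markers in this class summed to 11.4 to 82.6 CPM in Tet-TKO against 570 and 1483 CPM in the WT host, and myeloid markers to 1.78 to 7.36 CPM against 18.2 and 13.4 CPM. Megakaryocyte markers summed to 9.45 to 14.4 CPM against 20.95 and 15.4 CPM, and endothelium markers to 1765 to 1926 CPM against 2092 and 2412 CPM. None of these lists overlapped between genotypes, whereas blood progenitor markers did. The part of these lists in the differences of *Pf4* and of the platelet genes called in this class was not tested. The difference of *Pf4* in blood progenitor-like cells was not called larger than in haematoendothelial progenitor-like or endothelium-like cells, with log2 differences between the effects of -2.94 (edgeR with library as a block, adjusted p = 0.0408) and -2.48 (adjusted p = 0.105), in a test added after seeing the data.

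Tet-TKO cells were rare in the erythroid-like class, with 24, 72 and 30 cells in the libraries tested against 1474 and 2325 in the WT host. *Rab27b* was at 68.8, 66.5 and 38.0 CPM in the 3 Tet-TKO libraries tested, while WT host libraries had 12.3 and 4.41 CPM (log2 fold change 2.55, SE 0.441, edgeR adjusted p = 0.0143). *F10* was at 31.6, 44.3 and 33.6 CPM against 70.0 and 51.6 CPM (log2 fold change -0.94, adjusted p = 0.0229). None of the 4 tested was called, with 1.84% of 8298 genes called. Erythroid markers summed to 15300, 31760 and 61650 CPM in these Tet-TKO libraries and to 85810 and 151500 CPM in the WT host, and brain and spinal cord markers to 68.8, 114 and 149 CPM against 24.9 and 30.7 CPM. Neither list overlapped between genotypes, and their part in the differences was not tested. In sub-cluster 8, which also took the name erythroid-like, *Rab27b* was called higher (log2 fold change 3.04, SE 0.411, edgeR adjusted p = 0.00309), as were 0.396% of 9342 genes, but 93.7% of the cells of sub-cluster 8 were scored as doublets. The call was lost without WT host library 2 (2.33, adjusted p = 0.0286). Without the clusters that consist mostly of scored doublets, the erythroid-like difference was 2.12 (adjusted p = 0.0614). In the erythroid-like class 1 member was called higher with DESeq2, the block, no count filter (2 others lower) or matching tdTomato (1 other lower). A member was also called higher with all variable genes, at resolution 1 and leaving out Tet-TKO library 3. The settings named so far called 401 genes or more, against 153. Leaving out WT host library 1 also called a member higher, although fewer genes were called there than in the main test. No member was called at 3000 UMIs, with like libraries summed or leaving out Tet-TKO library 1 or 2. Nor was any without scored doublets or without those clusters. The genotype effect on *Rab27b* in blood progenitor-like cells differed from that in erythroid-like cells by -2.79 (SE 0.369, edgeR adjusted p = 0.000189), as did the effects on 4.38% of 10355 genes at an adjusted p under 0.01, and by -2.22 (adjusted p = 0.0962) without those clusters.

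Summed over all kept cells, *Treml2*, *Itga2b* and *F10* were lower in Tet-TKO libraries. *Treml2* was at 0.636, 0.635, 0.923 and 0.724 CPM against 3.72 and 5.76 CPM (log2 fold change -2.79, SE 0.227, edgeR adjusted p = 0.00157). *Itga2b* was at 3.11, 3.34, 2.49 and 2.43 CPM against 10.9 and 12.2 CPM (-2.09, SE 0.213, adjusted p = 0.00305), and *F10* at 3.96, 4.21, 2.83 and 2.29 CPM against 23.1 and 20.7 CPM (-2.77, SE 0.289, adjusted p = 0.00331). For these genes all 4 Tet-TKO libraries lay below both WT host libraries, but how many of all genes do so was not counted. The 3 were called among 7 members tested, as were 2.06% of 21072 genes in that direction. *Pf4* (-3.26, adjusted p = 0.0123), *Gp9* (-2.74, adjusted p = 0.0101) and *Plek* (-2.68, adjusted p = 0.0182) had differences of like size that missed the threshold. *Rab27b* did not pass the test (log2 fold change -0.10, SE 0.217, adjusted p = 0.803), at 7.01, 7.92, 5.86 and 5.60 CPM against 6.64 and 6.84 CPM. In such sums fewer cells of a type and less RNA per cell cannot be told apart, and the erythroid-like class, which holds much *Treml2*, *Itga2b* and *F10*, made up 0.341 to 1.31% of kept Tet-TKO cells and 17.9 and 25.7% of kept WT host cells. The calls of *Itga2b* and *F10* were lost without Tet-TKO library 3 or either WT host library (edgeR adjusted p between 0.0102 and 0.0326), and all 3 calls, that of *Treml2* included, were lost with the like Tet-TKO libraries summed (adjusted p between 0.0211 and 0.0253), where edgeR called 0 of 20734 genes although 3887 had an unadjusted p under 0.05.

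The megakaryocyte genes met in few single cells. Cells with UMIs of at least 3 of *Pf4*, *Itga2b*, *Plek* and *Gp9* numbered 3 in each of the 4 Tet-TKO libraries and 23 and 70 in WT host libraries 1 and 2, or 0.0426, 0.0314, 0.131 and 0.298% against 0.279 and 0.775% of kept cells. By share the deepest Tet-TKO library, 4, thus lay above WT host library 1. Within sub-cluster 10 such cells made up 12 of 120 (10.0%) and 46 of 132 (34.8%). *Pf4* and *Plek* met in 4, 2, 0 and 1 Tet-TKO cells and in 20 and 73 WT host cells. *Pf4* came from few cells. In the blood progenitor-like class 10 cells held 76.2% of its 42 UMIs in WT host library 1 and 61.7% of its 290 UMIs in library 2, where 1 cell alone held 81. Without that cell the log2 fold change of *Pf4* was -4.51 (edgeR adjusted p = 0.00159, an alternative added after seeing the data).

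At E7.5, with 1 library per genotype, no test was possible and the intervals are exact 95% Poisson intervals for counting error. The blood progenitor-like class held 31 Tet-TKO and 494 WT host cells. *Itga2b* was at 8.05 CPM (3.24 to 16.6) in Tet-TKO and 39.9 CPM (35.6 to 44.7) in WT host cells, and *F10* at 14.96 CPM (7.96 to 25.6) and 63.3 CPM (57.8 to 69.2). *Treml2* was at 2.30 CPM (0.279 to 8.31) and 10.9 CPM (8.66 to 13.5). For these 3 genes the intervals did not overlap, whereas those of *Rab27b*, 6.90 CPM (2.53 to 15.03) and 16.6 CPM (13.8 to 19.8), did. How many of all genes separate in this way was not counted, and the genotypes filled partly different sub-clusters of the same name, as given below. *Pf4* had 0 UMIs in Tet-TKO cells, which allows a level of up to 3.45 CPM, and 1.73 CPM (0.919 to 2.95) in WT host cells, so a difference was not detectable at this depth, and the same holds for *Plek* and *Gp9*, both at 0.531 CPM in the WT host. *Ppbp* had 0 UMIs in both libraries.

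At E7.5 the Tet-TKO blood cells shared their sub-clusters with WT host cells, but some WT host sub-clusters held few or none of them. Sub-cluster 0 of that stage held 33 Tet-TKO and 152 WT host cells, while 2 further blood progenitor-like sub-clusters held 157 and 118 WT host cells and 0 and 3 Tet-TKO cells. Within sub-cluster 0 *F10* was at 15.6 CPM (8.74 to 25.8) against 47.9 CPM (39.3 to 57.8) and *Itga2b* at 7.29 CPM (2.93 to 15.02) against 22.2 CPM (16.5 to 29.2). *Rab27b*, at 6.25 CPM (2.29 to 13.6) against 11.1 CPM (7.17 to 16.4), overlapped. Here too the share of all genes that separate was not counted. In WT host blood progenitor-like cells all 7 members other than *Ppbp* were at lower CPM at E7.5 than in either WT host library at E8.5, as values side by side of 1 and 2 libraries. The share of all genes that lie the same way was not counted, so this is no result about the members.

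**Figure D5:**
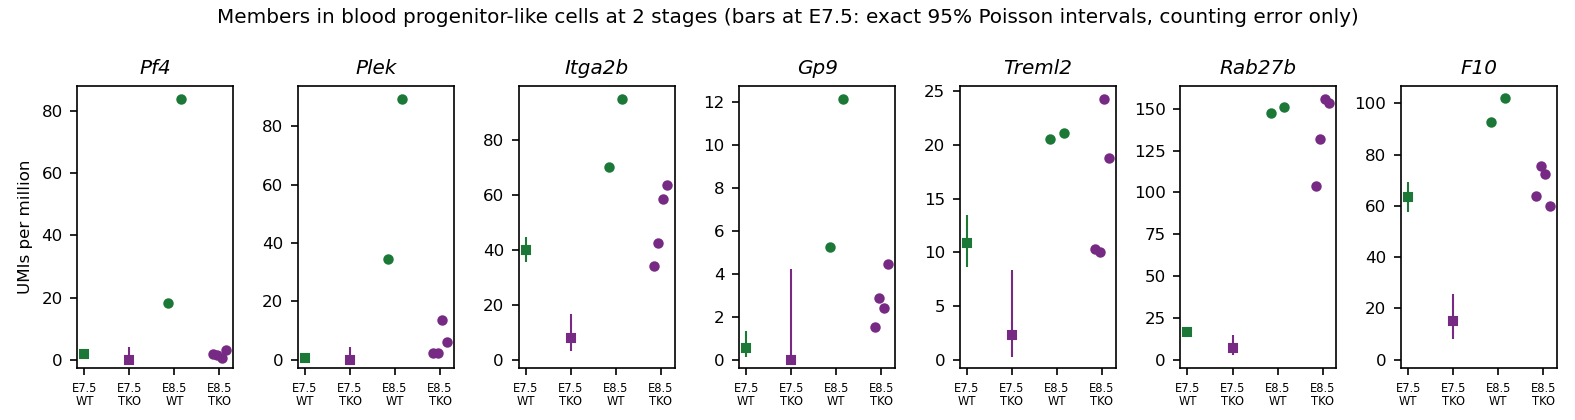
Members in blood progenitor-like cells (CPM, linear axes): squares are the E7.5 libraries with exact 95% Poisson intervals and circles the E8.5 libraries, green for WT host and purple for Tet-TKO. *Itga2b* and *F10* are already present in the WT host at E7.5 (39.9 and 63.3 CPM), and *Pf4* and *Plek* are at 18.4 CPM or more in both WT host libraries of E8.5.

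The members were set beside 90 other platelet genes, listed by role. In the blood progenitor-like class 62 were tested, of which 11 were lower in Tet-TKO cells, 0 were higher and 51 did not pass, with a median log2 fold change of -0.65 against 0.02 over all genes tested, of which 0.973% were lower. Calls in this class rested on few libraries, since 100 genes were called in all, 7 without WT host library 2 and 0 without correction. The lower genes fell in signalling and cytoskeleton (6 of 20 tested), granule cargo (2 of 8), granule biogenesis (1 of 10), plasma coagulation (1 of 3) and transcription (1 of 14), with 0 of 7 adhesion receptors. *Tfpi*, an inhibitor of the clotting cascade, was at 7.17, 5.01, 5.17 and 6.92 CPM in Tet-TKO and 42.8 and 38.8 CPM in WT host libraries (log2 fold change -2.68, SE 0.210, edgeR adjusted p = 0.000229). *Lat*, an adaptor of immune and platelet receptors, was at 4.64, 3.22, 1.19 and 2.47 CPM against 23.6 and 36.8 CPM, and *Fyb*, an adaptor of integrin activation, at 1.55, 0.895, 3.18 and 0.494 CPM against 13.6 and 28.7 CPM. These 3 were chosen for the lowest adjusted p among the genes called, so that they separate the genotypes without overlap adds no support.

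In the other groups the list was counted in the same way, and the share of all genes called in each is given above. In sub-cluster 2 none of 46 tested was called, with a median of 0.28, and in erythroid-like cells 1 of 32 was, *Pdgfa*, which was higher. In endothelium-like cells 4 of 53 were lower, among them *Tfpi* (log2 fold change -1.38, edgeR adjusted p = 0.000341), *Tgfb1* (-1.16, 0.0014) and *Gata1*, a transcription factor of erythroid and megakaryocyte cells (adjusted p = 0.00482). *Gata1* had 1 UMI in Tet-TKO library 1 and 0 in the others, while WT host libraries had 3.96 and 8.96 CPM, and the erythroid markers given above moved with it. In haematoendothelial progenitor-like cells *P2rx1*, an ATP receptor of platelets, and *Rasgrp2*, an activator of Rap1, were the 2 lower genes of 43 tested, *P2rx1* at 0.926, 0.593, 1.44 and 0 CPM against 10.9 and 11.4 CPM. In sub-cluster 11, 5 of 41 were lower, led by *Fermt3* (kindlin-3 of integrin activation), at 11.6 and 15.8 CPM against 140 and 142 CPM, followed by *Tgfb1* and *Ptgs1*. Over all kept cells 11 of 80 were lower, led by *Fermt3*, *Gata1* and *Unc13d*.

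The genes whose WT host levels over the 45 E8.5 clusters most resembled each member are given as a description, from log2(CPM + 1) of 2 summed libraries and 13562 genes, and all points share these libraries. *Pf4* was closest to *P2rx1* (Pearson's r = 0.932), *Spi1* (0.926) and *Samsn1* (0.921). *Itga2b* was closest to *Lyl1* (0.946), *Gypc* (0.925) and *Fermt3* (0.912), and *Gp9* to *Itgb2* (0.911), *Atp2a3* (0.873) and *Ptprcap* (0.83). *Plek* was closest to *Slc35d3* (0.831), *Ptpn7* (0.83) and *Myb* (0.786), and *Rab27b* to *Atp2a3* (0.692), *Slc18a2* (0.688) and *Rac2* (0.675). *Treml2* and *F10* both had *Gja6* (0.958 and 0.912) and *Ikzf1* (0.946 and 0.911) among their nearest 3 genes, and *F10* also had *Gfi1b* (0.911). No gene exceeded 0.518 for *Ppbp*, whose mean level was 0.012 CPM.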

How the data were processed

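Single-cell RNA-seq (10x, 3′ chemistry) was measured in 6 E8.5 and 2 E7.5 libraries. The authors deposited raw UMI counts per gene and barcode, made with Cell Ranger against mm10 with a tdTomato sequence added. The clusters and cell types used here were rebuilt from the counts and may differ from those of the study. A barcode was kept as a cell with 1500 UMIs or more, of which mitochondrial genes made up no more than 30% and ribosomal genes no more than 35%. Scrublet scores, at an expected 0.8% of doublets per 1000 cells, were given beside results, and scored doublets were removed as an alternative. Cells were clustered with scanpy 1.11.5 (2500 variable genes, 50 components, mutual nearest neighbours with k = 20, 15 neighbours, leidenalg 0.10.2 at resolution 2, and 1 for blood sub-clusters), with 1677 features left out. Classes were named from marker lists. Counts were summed per library and group of at least 10 cells and tested with edgeR 4.0.16 in R 4.3.3 (quasi-likelihood test, TMM, filterByExpr), where at least 2 libraries per genotype remained. Genes at a Benjamini-Hochberg adjusted p under 0.01 and a log2 fold change of at least 1 were called. The standard errors (SE) given with edgeR results were derived, as the absolute log2 fold change over the square root of the F statistic. DESeq2 1.42.0, other filters, other clusterings and leaving out each library were alternatives. The statistics were tested on simulated data. Intervals are at 95%, cover counting error only and use a floor of 3 counts for levels of 0.

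Named were the 8 members, the 3 genes of the platelet list with the lowest adjusted p among those called in each group, and for each member the 3 genes with the highest correlation. Some genes that this rule or a marker list holds are not reported here. The markers and neighbours named beside them were chosen after their values were seen. The members and lists were chosen with earlier results of these data known.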

Additional observations from a re-analysis of the deposited data

Results flagged for a closer look

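In 37 groups of 4 libraries looked at, 3 held a library far from the other 3, of which chance gives about 1 in 20 groups. *Pf4* in haematoendothelial progenitor-like cells of Tet-TKO library 4 was at 0.818 CPM, below the other Tet-TKO libraries, and rests on 1 UMI in 17 cells. *Treml2* in endothelium-like cells was at 0.586 CPM in Tet-TKO library 3, from 1 UMI, and at 0 in the other 3. Sub-cluster 10 made up 0.0142% of the kept cells of Tet-TKO library 1, which is 1 cell, and 0 of the other 3. That cell held 5 UMIs of *Plek*, 6 of *Rab27b*, 2 each of *Itga2b* and *F10*, and 1 each of *Pf4* and *Gp9*.

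The genotype effect on *Rab27b* differed between cell classes: the log2 fold change in blood progenitor-like cells minus that in erythroid-like cells was -2.79 by the edgeR interaction test given in the report. Most Tet-TKO erythroid-like cells lay in a cluster of which 94.1% of cells were scored as doublets. Without such clusters the difference was -2.22 and did not pass (edgeR adjusted p = 0.0962), and their part in the result was not tested further.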

How the results depend on the processing

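Of 523 values of 30 member tests under 24 settings, 445 kept their direction and side of the threshold, 27 fell short of it, 38 newly passed it and 13 changed sign. Where no cause is given, it was not tested. *Pf4* in blood progenitor-like cells kept its call in 18 of 21 settings (-5.56 to -3.39, highest adjusted p 0.0713) and *Plek* in 13 of 22 (-4.62 to -0.25). Not all of these settings could change the outcome. In this class leaving out doublet clusters removed no cells, and dropping the minimum fold left the p-values as they were. Requiring at least 30 cells was the same as leaving out Tet-TKO library 4. These counts thus overstate how far the calls hold. Sub-cluster 10 kept its difference in cell number in the 13 settings of 13 in which it had a counterpart (-9.46 to -6.99).

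The 3 members called over all kept cells became 6 with DESeq2, 6 without the count filter, 6 with replicate number as a block and 0 with like libraries (Tet-TKO 1 and 2, and 3 and 4) summed, and 1 to 3 leaving out 1 library. Summed over the classes, 2 calls became 8 without the filter, 7 with the block (4 of them, *Pf4*, *Plek*, *Itga2b* and *Gp9*, lower in blood progenitor-like cells), 1 with like libraries summed, 1 without correction, 1 at 3000 UMIs and 5 with cells whose tdTomato matched their genotype, and 0 to 3 leaving out 1 library. With like libraries summed and without correction the 1 call was *Pf4* in endothelium-like cells, and both calls in blood progenitor-like cells were lost, as they were at resolution 1. Summed over the sub-clusters, 3 calls, which lie in sub-clusters 8 and 11, became 5 without the filter, 1 at resolution 1 and 1 at 3000 UMIs, where sub-cluster 11 had no counterpart, and 1 to 4 leaving out 1 of their libraries. The counts of 0 with like libraries summed, with all variable genes and without Tet-TKO library 3 or 4 come from other sub-clusters, since these 2 were not tested there. The cell number of sub-cluster 2 missed the threshold without correction (2.68, adjusted p = 0.0558) and ranged from 2.24 to 3.29 leaving out 1 library.

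*Rab27b* changed sign over all kept cells without Tet-TKO library 4 (0.0035; -0.23 at the lowest leaving out 1 library) and with the block (0.16), in blood progenitor-like cells without Tet-TKO library 1 (0.01; -0.15 at the lowest), with all variable genes (0.074), at resolution 1 (1.03, adjusted p = 0.00338) and at 3000 UMIs (0.14), and in sub-cluster 11 without Tet-TKO library 1 (0.64; -1.06 at the lowest). Where clusters were built without correction, *Itga2b* (0.12) and *Treml2* (0.53) in blood progenitor-like cells and *F10* in endothelium-like cells (0.38) changed sign. *F10* in sub-cluster 11 did without Tet-TKO library 1 (-0.055; 0.1 at the highest), without WT host library 2 (-0.042) and with the block (-0.00055).

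Counts of genes called also moved. Over all kept cells 558 became 1445 with DESeq2, 940 without the filter, 1711 with the block, 0 with like libraries summed and 108 to 235 leaving out 1 library. In blood progenitor-like cells 100 became 178, 441, 335 and 44 in that order, 0 without correction and 7 without WT host library 2. In erythroid-like cells 153 became 502, 986, 1011 and 23, 516 with all variable genes, 570 at resolution 1, 64 without scored doublets, 401 with tdTomato matches, 45 with at least 30 cells, 56 without doublet clusters and 17 to 577 leaving out 1 library. Without the filter and with the block, 80 became 294 and 321 in haematoendothelial progenitor-like and 101 became 319 and 396 in endothelium-like cells (160 without correction), with 12 and 23 at the lowest leaving out 1 library. In sub-cluster 2, 0 became 5 with DESeq2 and 27 without the filter, and in sub-cluster 11, 77 became 37 and 284, 174 with the block, 150 with tdTomato matches and 2 to 238 leaving out 1 library.

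The replicate numbers 1 and 2 are shared by Tet-TKO and WT host libraries. The study sorted both genotypes from pooled chimaeras and speaks of matching hosts, but the sources used here do not tie the libraries to each other by these numbers, so the block is an alternative. The deviations of same-numbered libraries correlated at 0.311 over all kept cells and 0.139 in blood progenitor-like cells. Few Tet-TKO cells limit the erythroid-like comparisons and E7.5.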
